A study of Drosophila melanogaster with 8 samples.

Results

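The Argonaute and small RNA pathway genes described here are 10 genes, chosen by name among 18358 annotated Drosophila melanogaster genes: AGO1, AGO2, AGO3, piwi, Dcr-1, Dcr-2, r2d2, loqs, drosha and pasha. They were read in 4 peak lists of NELF-E ChIP-seq (chromatin immunoprecipitation followed by sequencing) from Kc167, a female cell line of embryonic origin. NELF-E belongs to the negative elongation factor (NELF), a complex that keeps RNA polymerase II paused shortly after it has begun to transcribe. siAGO2 replicates 1 and 2 came from cells in which AGO2 was targeted by RNA interference (treatment label siAGO2, genotype label Ago2 knockdown; the protocol covers transfection of dsRNA or siRNA), and mock replicates 1 and 2 came from cells transfected without either RNA (genotype label control). All cells were collected 3 days after transfection, and the antibody was the same in each library. The labels do not say whether the replicates were separate cultures, so the spread between them may be technical. The 4 matching input samples were not analysed here.

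Small RNA pathways use short RNAs to guide an Argonaute protein to its target. In the microRNA pathway of flies, the nuclease Drosha and its partner Pasha cut primary transcripts in the nucleus, Dcr-1 with Loqs trims the hairpin in the cytoplasm, and AGO1 carries the mature microRNA. In the siRNA pathway, Dcr-2 cuts double-stranded RNA, R2D2 helps to load the product, and AGO2 cleaves the target. Piwi and AGO3 bind piRNAs, which silence transposons mainly in the gonads.

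The lists differed in depth along with treatment. The genome-wide background at peak summits, which scales with the number of reads, was 1.18 and 1.48 fragments in siAGO2 replicates 1 and 2, against 4.46 and 2.19 fragments in mock replicates 1 and 2. The lists held 5904 and 6206 peaks in the siAGO2 libraries and 7944 and 6933 peaks in the mock libraries. Every mock library was deeper than every siAGO2 library, so depth and treatment cannot be told apart. A peak here is a region past the q-value threshold of the peak caller, and a missing peak means only that none was called. Of the markers of hemocytes, the blood cells that Kc167 cells resemble, 6 of 8 had a peak at a start in each library. These included srp, Hml and Pxn, while NimC1 and He had no peak in any library. The muscle markers Mhc and Act57B and the germ line markers vas and bam had none at a start, although vas had at least 1 peak inside its body in each list. By contrast, the neuronal gene elav and the glial gene repo did have a start peak in each library, while nSyb, the other neuronal marker, had no peak in any. Among all protein-coding genes, 34.0% had a start peak in all 4 libraries and 53.2% had one in none. A NELF-E peak is not a level of RNA.

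The first question was which of the 10 genes held NELF-E at a start. The genes have 17 distinct annotated starts, and a start was held where a peak lay within 250 bp of it. AGO1, AGO2, Dcr-1 and drosha were held in all 4 libraries. Dcr-2 was held in the mock libraries alone, loqs in mock replicate 1 alone, and r2d2 in all but siAGO2 replicate 1. AGO3, piwi and pasha had no peak at any start in any list. That is 4 of 10 genes held in all 4 libraries and 3 in none, against 34.0% and 53.2% of 13981 protein-coding genes. By library, 4 and 5 of the 10 genes were held in the siAGO2 libraries, against 7 and 6 in the mock libraries (exact permutation test, two-sided p = 0.333, the smallest that 2 libraries against 2 allow). The share of protein-coding genes held ran the same way, at 36.3% and 38.4% in the siAGO2 libraries and 46.1% and 41.1% in the mock libraries. Over the gene body, 4 and 4 of the 10 genes had a peak in the siAGO2 libraries and 7 and 5 in the mock libraries (exact permutation p = 0.333), against 35.6% and 37.9% of protein-coding genes in the siAGO2 libraries and 45.8% and 40.4% in the mock libraries. The 4 genes held at a start in every library also had a body peak in every library, as did 33.3% of protein-coding genes, and 3 genes (piwi, pasha and r2d2) had a body peak in none, as did 53.4%. A body peak needed an overlap of only 1 bp, and at drosha each summit lay outside the gene. With each list reduced to its 5904 top-scoring peaks, the genes with a peak over the body numbered 4 and 4 in the siAGO2 lists and 5 and 4 in the mock lists.

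**Figure D1:**
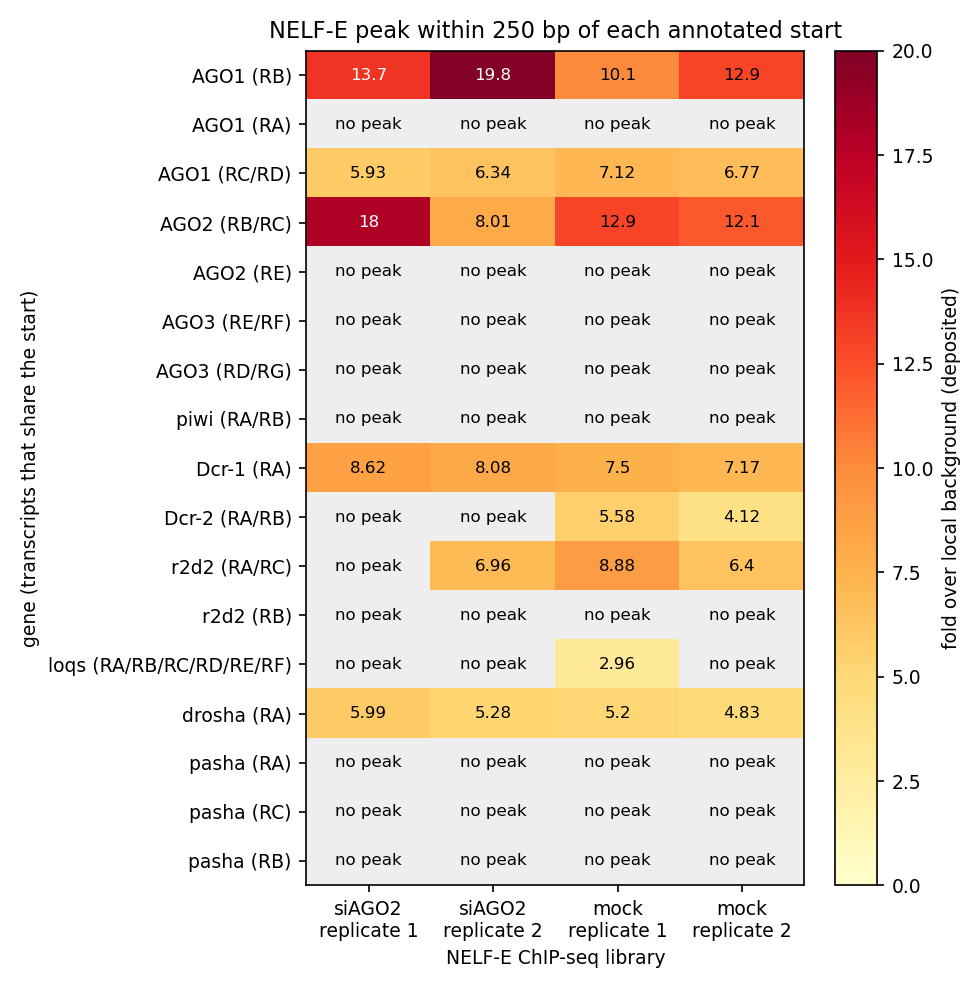
Each row is 1 of the 17 annotated starts of the 10 genes and each column a library. Cells give the deposited fold over local background of the highest-scoring peak within 250 bp of the start. The starts of AGO1 (RB), AGO1 (RC/RD), AGO2 (RB/RC), Dcr-1 and drosha have a value in all 4 columns, and 9 starts have none in any.

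Among the genes with several starts, NELF-E was called at some starts and not at others in AGO1, AGO2 and r2d2. The peak counted for r2d2 did not cover its start. No start of AGO3 or pasha had a peak. Of the 17 starts, 5 were held in all 4 libraries, 3 in some and 9 in none. No share over all annotated starts was computed to set beside these counts. Outside the starts, the bodies of the 10 genes held a single further peak, in AGO3. The 10 genes thus had 5 and 5 peaks over their bodies in the siAGO2 libraries and 8 and 6 in the mock libraries.

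Among the Argonautes, AGO2 is the knockdown target. It lies at 3L, 15554113 to 15561042, on the plus strand (FBgn0087035, dm6), and its transcripts begin at 2 places. The lists do not measure AGO2 RNA or protein, so the knockdown could not be checked from them. The methods of the study report a check of knockdown efficiency by Western blotting. The upstream start at 15554113, used by AGO2-RB and AGO2-RC, was covered by 1 peak in each library. The downstream start at 15556823, used by AGO2-RE, had no peak in any. Both are printed below, because they show the held and the unheld start of the same gene, from 70 bases before the start to the first 30 transcribed bases (RefSeq Release 6 genome, the assembly of dm6). No capitals appear in them, since none of the motifs searched (named with the later windows) was found in either.
AGO2-RB/RC, chr3L:15554043-15554142, plus strand: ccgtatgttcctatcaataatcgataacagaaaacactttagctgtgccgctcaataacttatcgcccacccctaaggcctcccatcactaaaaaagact
AGO2-RE, chr3L:15556753-15556852, plus strand: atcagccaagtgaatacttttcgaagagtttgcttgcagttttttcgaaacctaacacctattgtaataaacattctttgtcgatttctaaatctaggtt

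The peak at the upstream AGO2 start had folds of 18 and 8.01 over local background in the siAGO2 libraries, against 12.9 and 12.1 in the mock libraries. The siAGO2 values lay on either side of both mock values. The mean fold was 13 ± 7.07 in siAGO2 and 12.5 ± 0.57 in mock cells (SD, n = 2 each), and the difference of the mean log2 folds, used for every log2 difference here, was −0.05 (exact permutation test, two-sided p = 1). The arithmetic and the log means thus ordered the groups differently. The spread between the siAGO2 replicates was far larger than the difference between the groups. Without siAGO2 replicate 1 the log2 difference was −0.64, and without siAGO2 replicate 2 it was 0.53. Their folds stood in a ratio of 2.25, and 0.869% of the 5062 genes held in all 4 libraries had a ratio this high or higher between the same libraries.

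Fold is the pileup of fragments at the summit over a local background, with 1 added to both. The added 1 weighs more where the background is low. The 2 parts could be read separately. AGO2 had 43 and 36 summit fragments in the siAGO2 libraries, against 97 and 65 in the mock libraries. The local background there was 1.44 and 3.62 fragments in the siAGO2 libraries and 6.53 and 4.47 fragments in the mock libraries. The siAGO2 libraries thus differed more in local background than in summit fragments. To put libraries on one scale, summit fragments were divided by the genome-wide background of the library, here called the summit level. The summit level of AGO2 was 36.3 and 24.3 in siAGO2 cells, against 21.7 and 29.7 in mock cells, again overlapping (log2 difference 0.23, exact permutation p = 0.667). The share of the 5062 held genes at or below this level was 58.7% and 44.4% in the siAGO2 libraries and 38.4% and 51% in the mock libraries, so AGO2 was near the middle of them. The summit levels of AGO2 in siAGO2 replicates 1 and 2 stood in a ratio of 1.49, which 5.43% of the held genes reached or exceeded.

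The AGO2 summit lay far into the gene. It was 246 and 246 bp downstream of the start in the siAGO2 libraries, and 148 and 247 bp downstream in the mock libraries. Over 4757 protein-coding genes held in all 4 libraries the median summit lay 79 and 79 bp downstream in the siAGO2 libraries and 72 and 77 bp downstream in the mock libraries. A summit as far downstream as that of AGO2 was seen in 3.03% and 3.32% of these genes in the siAGO2 libraries, and in 13.4% and 2.67% in the mock libraries. It lay in a coding exon in every library except mock replicate 1, where it lay in the 5′ untranslated part of an exon. No other gene has an annotated start within 1500 bp of this one, so the peak had no neighbouring start to be shared with. The genes with folds most like those of AGO2 over the 4 libraries, by the Euclidean distance in log2 fold among 5062 genes, were RpS5a, SkpA and Vps26, which encode a ribosomal protein, a ubiquitin ligase subunit and a retromer subunit. RpS5a, at a distance of 0.244, had folds of 17.9 and 7.82 in siAGO2 and 11.0 and 11.3 in mock cells. With 4 values per gene this likeness is a description only.

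AGO1, the carrier of microRNAs, lies at 2R, 13943387 to 13958089, on the minus strand (FBgn0262739) and has 3 starts. NELF-E was called at the outermost start at 13958089 (AGO1-RC and AGO1-RD) and at the innermost at 13954025 (AGO1-RB) in each library, and at the start between them (13955680, AGO1-RA) in none. The innermost start held the stronger peak. Its fold was 13.7 and 19.8 in siAGO2 cells, against 10.1 and 12.9 in mock cells, so that both siAGO2 values lay above both mock values. The mean was 16.8 ± 4.36 in siAGO2 and 11.5 ± 1.96 in mock cells (SD, n = 2 each; log2 difference 0.53, exact permutation p = 0.333). Without siAGO2 replicate 1 the log2 difference was 0.80, without siAGO2 replicate 2 it was 0.26, and without mock replicate 1 it was 0.35. At the outermost start the order was the reverse, with folds of 5.93 and 6.34 in siAGO2 and 7.12 and 6.77 in mock cells (log2 difference −0.18).

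On the summit level the innermost AGO1 start had 54 and 49.3 in siAGO2 cells, against 34.3 and 37.0 in mock cells (51.7 ± 3.34 and 35.6 ± 1.88, SD, n = 2 each). The groups lay apart here too, by a log2 difference of 0.54 (exact permutation p = 0.333). Over all held genes the median log2 difference was 0.13, and both siAGO2 levels lay above both mock levels at 35.2% of them. High levels were also spread more widely in the shallower libraries, with a 95th percentile of 148 and 123 in the siAGO2 libraries against 62.3 and 106 in the mock libraries. The part of that spread in the AGO1 difference was not tested. At the outermost start the levels overlapped, at 14.3 and 16.2 in siAGO2 and 14.3 and 16.4 in mock cells.

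The summit at the innermost AGO1 start also lay at different places in the 2 groups. Relative to the start, it was at 50 and 59 bp in the siAGO2 libraries, which is downstream, and at −46 and −34 bp in the mock libraries, which is upstream. A gap of at least 84 bp in this direction, between the nearest siAGO2 and mock summits, was seen at 42 of 4757 protein-coding genes (0.883%), and in the opposite direction at 20 genes (0.42%). Each summit was measured from the start paired with the highest-scoring peak in that library. In genes with several starts, that start or peak can differ between libraries. AGO1 was singled out for this after its values were seen. The peak was 676 and 741 bp wide in siAGO2 and 803 and 836 bp wide in mock cells. It also faces the start of mRpL53, a mitochondrial ribosomal protein gene, and of CG33155, which share a start 170 bp away and run in the opposite direction. NELF-E at such a divergent pair cannot be assigned to either gene from the lists, and the mock summits lay between the facing starts.

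**Figure D2:**
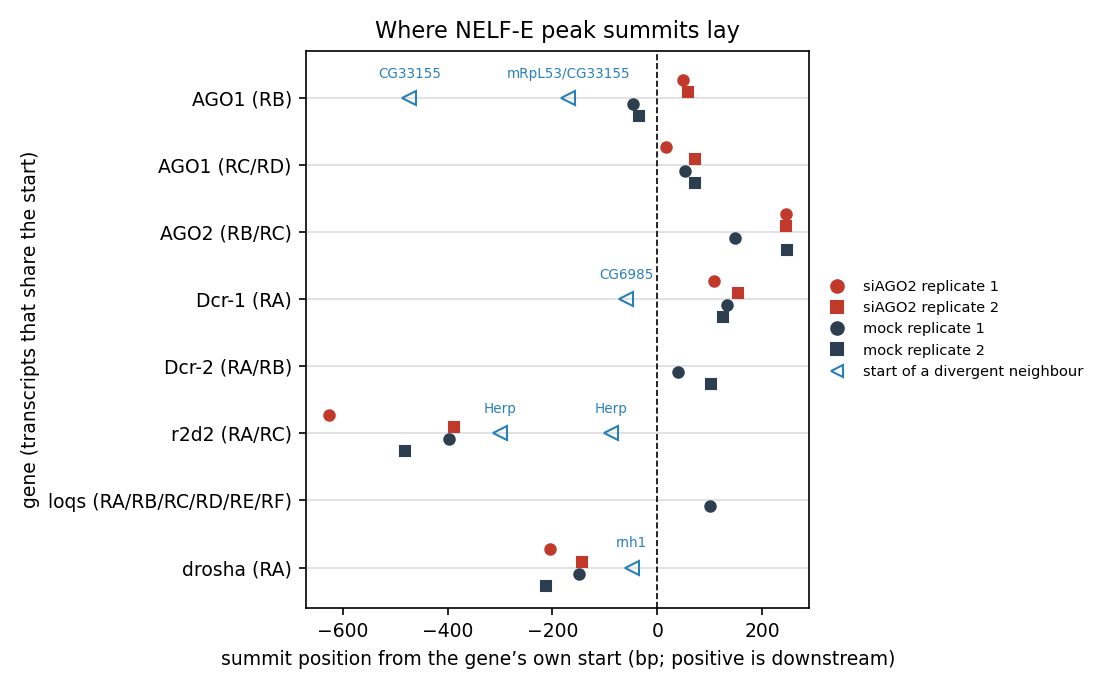
Points give the distance of each peak summit from the nearest start of the gene itself, in bp, with positive values downstream, for peaks within 1500 bp of a start. Open triangles mark the start of a neighbour that runs the opposite way. Summits at AGO2 and Dcr-1 lie downstream of their own start, while those at drosha and r2d2 lie beyond the start of the neighbour.

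AGO3 and piwi, the piRNA carriers of the set, had no NELF-E peak at a start in any list. AGO3 spans 135048 bp at 3L, 23554593 to 23689640, on the plus strand (FBgn0250816), and both of its starts, at 23554593 and 23555925, were free of peaks. Its single peak was in mock replicate 1, at 23686259 to 23686561, in an intron 130523 bp from the nearest AGO3 start. It overlapped an annotated F element, a transposon, and was weak, with a fold of 3.80 and 20 summit fragments. Scaled to the other libraries it would have held 5.31 and 6.64 fragments in the siAGO2 libraries and 9.83 in mock replicate 2, close to the fewest fragments of any peak in those lists (4, 7 and 9). The part of depth in its absence from the other lists was not tested. The gene piwi (2L, 10982205 to 10987420, minus strand, FBgn0004872) had neither a start peak nor a body peak.

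The Dicer genes differed from each other. Dcr-1, which makes microRNAs, lies at 3R, 22734007 to 22741091, on the minus strand (FBgn0039016). Its only start was covered by a peak in every list. Its fold was 8.62 and 8.08 in siAGO2 cells, against 7.50 and 7.17 in mock cells. Both siAGO2 folds lay above both mock folds (8.35 ± 0.383 and 7.34 ± 0.235, SD, n = 2 each; log2 difference 0.19, exact permutation p = 0.333). The summit levels overlapped, at 29.5 and 27 in siAGO2 and 23.5 and 30.6 in mock cells (log2 difference 0.07, exact permutation p = 1). The summit was 108 and 154 bp downstream of the start in siAGO2 and 133 and 125 bp downstream in mock cells, in a coding exon. Although CG6985 begins 59 bp away on the opposite strand, all 4 summits lay within Dcr-1.

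Dcr-2, which makes siRNAs, lies at 2R, 17574979 to 17581525, on the minus strand (FBgn0034246). No peak was called over it in either siAGO2 library, while the mock libraries had 1 peak each, with folds of 5.58 and 4.12 and summit levels of 9.19 and 7.30. The summits lay 39 and 102 bp downstream of its start in mock replicates 1 and 2. A peak at a start in both mock libraries and neither siAGO2 library was found for 2.64% of protein-coding genes, and the reverse for 0.0143%. For a peak over the body these shares were 2.70% and 0.0215%. The mock peaks held 41 and 16 summit fragments. At the depth of siAGO2 replicates 1 and 2, the first would correspond to 10.9 and 13.6 fragments and the second to 8.65 and 10.8. Of the peaks in those siAGO2 lists, 4.88% and 10.8% had no more fragments than the first value, and 0.999% and 2.40% no more than the second. The scaled values were thus in the lower range of those lists but not under their minimum of 4 and 7 fragments, and the part of depth in the missing peaks was not tested. In lists of 5904 peaks, Dcr-2 had a peak in mock replicate 1 only.

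The partners of the Dicers had little NELF-E of their own. At r2d2 (2L, 7800147 to 7802098, plus strand, FBgn0031951), which encodes the partner of Dcr-2, no peak overlapped the gene in any list. A peak upstream of it was in each list, with folds of 7.94 and 6.96 in siAGO2 and 8.88 and 6.4 in mock cells. Relative to the r2d2 start at 7800147, its summit was at −626 and −387 bp in the siAGO2 libraries and at −397 and −482 bp in the mock libraries. Herp, a gene of the response to unfolded proteins in the endoplasmic reticulum, has starts 89 and 300 bp upstream of r2d2 and runs away from it. Counted from the Herp start farther from r2d2, the summits lay 326 and 87 bp into Herp in siAGO2 cells, and 97 and 182 bp in mock cells. The single list in which r2d2 did not count as held, siAGO2 replicate 1, has this peak too, with an edge that ends more than 250 bp from the r2d2 start. At loqs (2L, 13382652 to 13385671, plus strand, FBgn0032515), which encodes the partner of Dcr-1, the single peak was in mock replicate 1, with a fold of 2.96, 37 summit fragments and a summit 100 bp downstream of the start. A peak at a start in mock replicate 1 alone was found for 3.60% of protein-coding genes, and one over the body, as at loqs and AGO3, for 3.88%. At the depth of the other libraries the fragments of the loqs peak would number 9.83 and 12.3 in the siAGO2 libraries and 18.2 in mock replicate 2. Of the peaks in those lists, 2.42%, 7.59% and 11.8% had no more fragments than these values, and the fewest were 4, 7 and 9. The part of depth in the missing loqs peaks was not tested.

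Of the pair that cuts primary microRNA transcripts, drosha was held and pasha was not. The drosha start (2R, 7932429 to 7936840, plus strand, FBgn0026722) was covered by a peak in every list. Its fold values were 5.99 and 5.28 in siAGO2 and 5.20 and 4.83 in mock cells. Both siAGO2 folds lay above both mock folds (5.63 ± 0.499 and 5.01 ± 0.257, SD, n = 2 each; log2 difference 0.17, exact permutation p = 0.333). The summit level had the opposite order, at 17.7 and 18.2 in siAGO2 and 21.3 and 21.4 in mock cells (log2 difference −0.25, exact permutation p = 0.333). Both siAGO2 levels below both mock levels was seen at 12.2% of all held genes. No direction can therefore be given for drosha. The local background at its summit was 2.67 and 4.30 fragments in siAGO2 and 17.4 and 8.93 fragments in mock cells, and its percentile of score over the shared peaks was 23 and 21.2 in siAGO2 and 21.4 and 21.3 in mock cells.

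The drosha peak, moreover, was centred on a neighbour. The gene rnh1, which encodes an RNase H, begins 49 bp from drosha on the opposite strand. Relative to the drosha start, the summits were at −205 and −144 bp in siAGO2 cells and at −150 and −212 bp in mock cells. Counted from the rnh1 start, they lay 156 and 95 bp into rnh1 in siAGO2 cells and 101 and 163 bp in mock cells. If only peaks with a summit nearer to a start of the gene itself are counted, 3 of the 10 genes, AGO1, AGO2 and Dcr-1, were held in all 4 libraries, a count chosen after the values were seen. The share of all protein-coding genes under this rule was not computed, so the count has no comparison. pasha (3R, 31617977 to 31622217, plus strand, FBgn0039861) has 3 starts and had no peak over any of them or over its body.

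**Figure D3:**
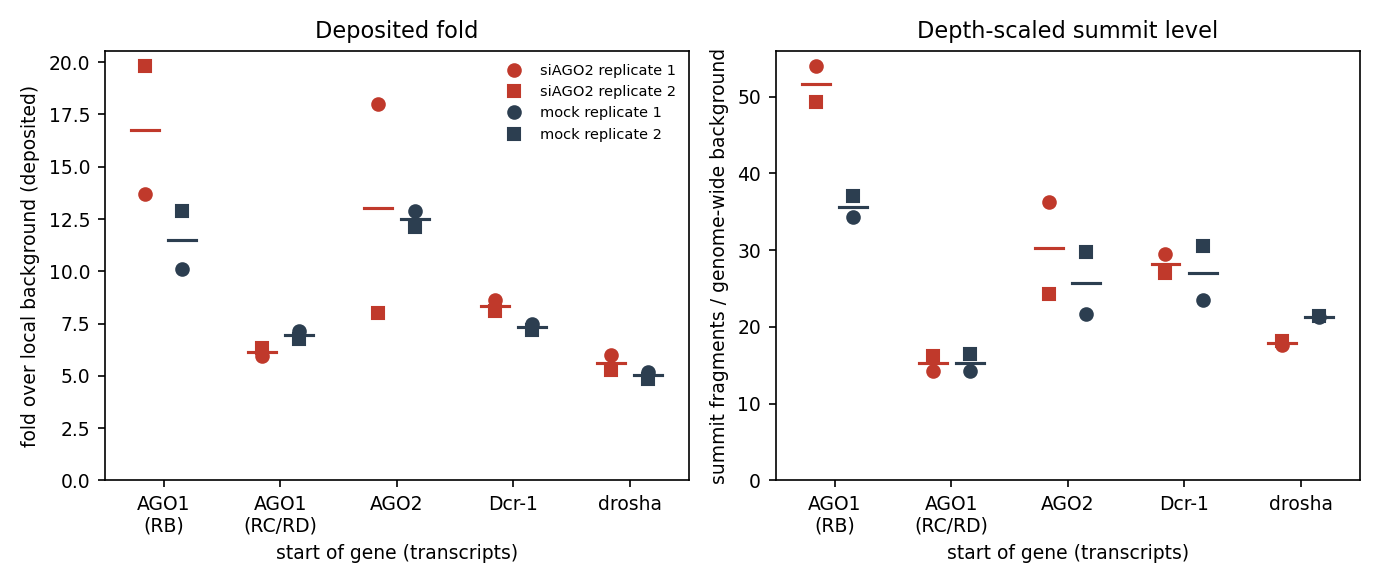
Points are libraries and bars the mean of 2 libraries at the 5 starts held in all 4. The left panel gives the deposited fold over local background and the right panel the summit fragments over the genome-wide background of the library. The groups lie apart at AGO1 (RB) in both panels, with siAGO2 higher, and change order at drosha.

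For the 4 genes held in all libraries, both siAGO2 folds lay above both mock folds at 3 (AGO1, Dcr-1 and drosha) and below at 0, against 31.9% and 15.6% of the 5062 held genes. On the summit level the count was 1 above (AGO1) and 1 below (drosha), against 35.2% and 12.2%. On the percentile of the score within its list it was 0 above and 2 below (Dcr-1 and drosha), against 7.07% and 43.0%. Over the shared peaks alone, the percentile of AGO1 was 68.5 and 74.1 in siAGO2 and 59.1 and 61.1 in mock cells. On that measure 1 gene lay above and 0 below, against 22.8% and 20.3%. AGO1 at its innermost start was thus the single member whose groups kept the same order on fold, summit level and shared percentile, and they overlapped on the within-list percentile (76.3 and 81.9 in siAGO2, 77.3 and 74.7 in mock cells). By permutation no difference between groups at these genes could pass a threshold with 2 libraries against 2.

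**Figure D4:**
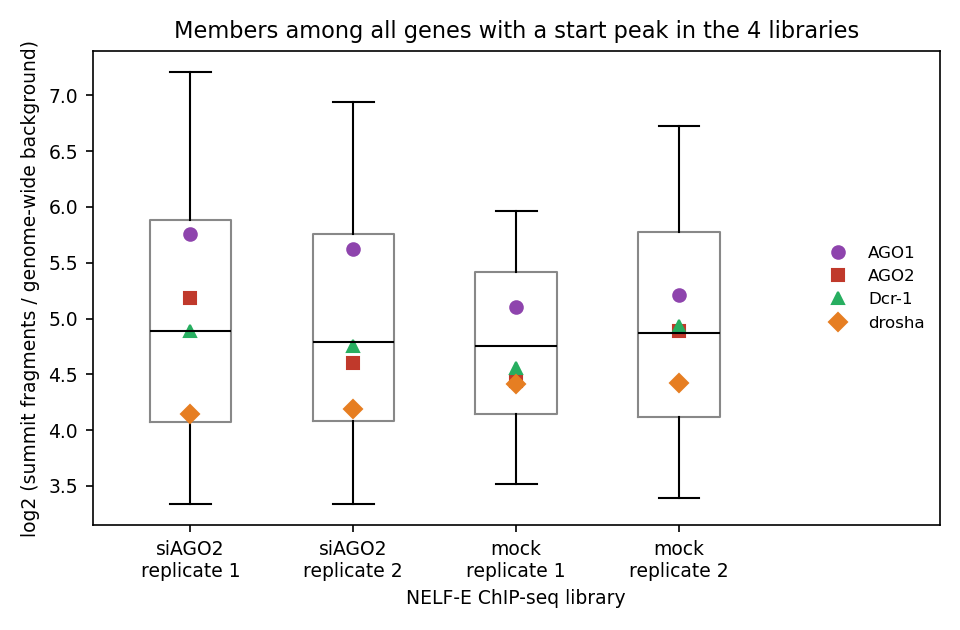
Boxes show the quartiles, and whiskers the 5th to 95th percentiles, of the log2 summit level over the 5062 genes with a start peak in all 4 libraries. AGO1, AGO2, Dcr-1 and drosha are marked and fall within the box in each library. The upper whisker is lowest in mock replicate 1.

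The promoters were then read for short core elements. The window ran from 70 bases before the start to 30 after it, and 5 motifs were searched on both strands of 19276 protein-coding starts. GAGAG, the core of the GAGA factor site, was in 13.9% of windows. The TATA box, searched as TATAAA, was in 16.1%. The Initiator core, searched as TCAGT, was in 31.2%. The DNA replication-related element, searched as TATCGATA, was in 5.47%. The core of promoter motif 1, which M1BP binds in flies, was searched as GGTCACAC and found in 4.48%, among them the windows of Dcr-1, piwi and pasha-RA. In piwi an Initiator match on the opposite strand overlaps the end of the motif 1 match. The 4 windows below set a promoter with NELF-E in every list (Dcr-1) beside one with a peak in a single list (loqs) and a pair with none (piwi, pasha). Capitals mark the motif matches, and the last 30 bases are transcribed.
Dcr-1-RA, chr3R:22741062-22741161, minus strand: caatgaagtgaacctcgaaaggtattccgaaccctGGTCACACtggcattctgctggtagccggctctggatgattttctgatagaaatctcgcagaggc
loqs, chr2L:13382582-13382681, plus strand: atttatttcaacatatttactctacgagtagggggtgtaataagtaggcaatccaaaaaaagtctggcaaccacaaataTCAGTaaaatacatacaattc
piwi, chr2L:10987391-10987490, minus strand: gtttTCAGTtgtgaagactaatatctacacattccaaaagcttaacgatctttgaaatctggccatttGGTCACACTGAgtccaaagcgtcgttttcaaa
pasha-RA, chr3R:31617907-31618006, plus strand: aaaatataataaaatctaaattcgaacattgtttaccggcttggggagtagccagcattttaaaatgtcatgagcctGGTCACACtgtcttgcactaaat

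GGTCACAC began 35 bases before the start in Dcr-1, 2 bases before it in piwi and at the eighth transcribed base in pasha-RA. The motif was thus in the window of a gene held by every list and in those of 2 genes held by none. Neither AGO2 window contained any of the 5 motifs, and no window of the 10 genes contained TATAAA or TATCGATA. At the innermost AGO1 start the only match was GAGAG, 53 bases upstream. A match of letters is not a bound site.

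The wider pathway was read from lists of other genes. Of 15 genes that act with the siRNA complex or load it, 13 (86.7%) had a start peak in all 4 libraries, and of 19 genes of microRNA processing, export and silencing, 13 (68.4%) did and none was without a peak. Of 28 piRNA pathway genes, 9 (32.1%) were held in all 4 libraries and 12 in none, among them aub, krimp, rhi, cuff and Panx, named here after their values were seen. The shares over all protein-coding genes were 34.0% held in all 4 libraries and 53.2% in none. In the first list, both siAGO2 folds were above both mock folds at 2 genes and below at 2. In the second the counts were 4 and 4, and in the third 3 and 3. Over all 5062 held genes the shares were 31.9% above and 15.6% below. The median log2 fold difference was 0.07, 0.04 and −0.16 in these lists, beside 0.13 over all held genes.

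The strongest peaks of the wider lists were at Rm62, a DEAD-box helicase gene, and Hsc70-4, a chaperone gene, among the siRNA partners. Rm62 had folds of 65.9 and 51.3 in siAGO2 and 17.5 and 37.0 in mock cells, and its groups did not overlap. Hsc70-4 had 30.3 and 24.9 in siAGO2 and 22.8 and 30.3 in mock cells, which overlap. In the microRNA list they were at Edc3, which enhances decapping (12.7 and 22.9 in siAGO2, 19.3 and 23.6 in mock cells), and Cbp20, of the nuclear cap-binding complex (22.5 and 19.3 in siAGO2, 13.6 and 18.9 in mock cells). By fold, the groups overlapped at Edc3 and lay apart at Cbp20, with siAGO2 higher. In the piRNA list they were at tapas, a Tudor domain gene (38.8 and 35.3 in siAGO2, 8.22 and 17.2 in mock cells), and squ (11.8 and 8.76 in siAGO2, 14.2 and 13.3 in mock cells). The groups lay apart by fold at both, with siAGO2 higher at tapas and lower at squ. On the summit level the groups stayed apart at Rm62 and tapas. They overlapped on it at Cbp20 (67.5 and 50.6 in siAGO2, 39.5 and 54.3 in mock cells). At squ they overlapped too (27.9 and 18.2 in siAGO2, 24 and 24.6 in mock cells). Rm62 and tapas are among the highest levels, the range in which mock replicate 1 was lowest. BoYb was the only gene of the 3 lists with a peak over its body in both mock libraries and neither siAGO2 library, with folds of 2.17 and 3.59 in mock cells. Over all protein-coding genes that share was 2.70%.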

How the data were processed

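Per the labels and methods, adapters were cut from the 50 bp reads with cutadapt, bowtie2 aligned them to dm6, alignments with a mapping quality under 20 and duplicates (Picard) were dropped, and the authors called peaks for each replicate with MACS2 against its input. The score the authors deposited is the −log10 q-value times 10 without its decimals. The fold they deposited is a ratio, summit pileup over local background, with the same constant added to both. The deposited −log10 p-value and −log10 q-value belong to the summit, and the default threshold was q = 0.05. Read counts per region were not used here, so the count model of the study was not run.

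Summit fragments (a whole number) and the local background were solved from fold and p. They matched within 0.001 in all but 1 peak each of siAGO2 replicate 1 and mock replicate 1. In mock replicate 1 the pileup carried a scale of 0.919. The genome-wide background is the lowest value shared by at least 1% of peaks. Genes came from Ensembl BDGP6.54, without 5896 transposable element entries, and sequences from RefSeq. No peak lay beyond a chromosome end. A gene took its highest-scoring peak within 250 bp of a start. Groups were compared by a two-sided exact permutation test of library labels (smallest p 0.333). Scripts were tested on simulated data, with Python 3.11.15 and scipy 1.17.1.

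All 10 genes are named. Of the wider lists, the 2 genes with the highest mean fold and those held over the body by 1 group alone are named. Hop, boot and nos found no single match. The members and lists were chosen with earlier results of these data known. Alternatives covered the window, the q threshold, list length, the measure, the peak chosen, pairing by replicate number and each library left out.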

Additional observations from a re-analysis of the deposited data

How the results depend on the processing

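With 2 libraries a group no setting yields a called difference, so direction and counts were followed. Of 99 alternatives, 7 reversed a direction and 6 moved a count by over 1.5 times. The other 86 kept the direction of a difference, though not its size, or kept a count within that range. Not all of them were independent checks. Pairing by replicate number, straight or crossed, could not change a mean difference. The narrower and wider windows returned the same log2 differences at AGO1, AGO2, Dcr-1 and drosha. The crossed pairing and the count by nearest summit were chosen after seeing the data.

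The AGO2 log2 difference (−0.05) became 0.23 on the summit level, 0.78 percentage points on the shared percentile and 0.53 without siAGO2 replicate 2. With 1 library left out it ranged from −0.64 to 0.53, the lowest without siAGO2 replicate 1. The drosha difference became −0.25 on the summit level and −10.47 points on the within-list percentile, and that of Dcr-1 −4.70 points on that percentile. With the peak nearest to a start, AGO1 gave −0.07, where that peak was at the outermost start in siAGO2 replicate 1 and at the innermost in the other libraries. Genes with both siAGO2 values above both mock values numbered 3 by fold, 1 by summit level, 0 by within-list percentile and 1 by shared percentile. Those below numbered 0, 1, 2 and 0 in the same order. With 1 library left out the counts above ranged from 3 to 4 and those below from 0 to 1, and AGO2 is the gene below without siAGO2 replicate 1.

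Fitted within replicate numbers (replicate block), the differences were the same by arithmetic (−0.05 for AGO2 and 0.53 for AGO1) and the smallest p was 0.5. Same-numbered deviations correlated at −0.077 in log2 fold and −0.195 in log2 summit level over 5062 genes, and crossed numbers left the counts at 3 and 0. Members held at a start differed by −2 between groups, and by −1 to −2.5 under the alternatives, and over the body by −2, and by −0.5 to −3.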

Other observations

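The window of 250 bp can give a gene the peak of its neighbour. Tailor, a uridylyltransferase gene of the microRNA list, had folds of 5.51 and 4.93 in siAGO2 and 20.7 and 18.3 in mock cells, a log2 difference of −1.90. It was looked at for that value after it was seen. The mock values belong to the peak at alphaTub84B, whose edge reached within 250 bp of the Tailor start in the mock lists but not in the siAGO2 lists. That neighbouring peak had folds of 24.6 and 13.8 in siAGO2 and 20.7 and 18.3 in mock cells. The peak over Tailor itself had folds of 5.51 and 4.93 in siAGO2 and 9.31 and 4.11 in mock cells, and its summit levels were 18.6 and 16.2 in siAGO2 and 19.1 and 17.3 in mock cells. Tailor is counted among the 4 genes of the microRNA list with both siAGO2 folds below both mock folds.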
